A study of Homo sapiens with 16 samples.

Results

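Human kidney organoids were compared after 29 and 21 days of culture, with D21 as the reference. The comparison held 6 bulk RNA-seq libraries of the 16 samples in the series: 2 of D29 and 2 of D21 from a replicated experiment, and 1 of each day from a second experiment with a single library per day. All genes were kept, so the members were the 27650 genes listed in the replicated table, of which 20115 were also listed in the single-library table. The organoids were grown as spheroids from UM77-2, an established human embryonic stem cell line, and days were counted from seeding. None of these cultures was labelled as treated. A D24 library of single cells, a vehicle control, was read beside them. Each library held the RNA of isolated spheroids, in a number the sources used here do not state. The labels add that the replicated experiment was refed daily in its last days before D21 and onward, and the feeding of the single-library experiment was described only by the general protocol. The 2 organoid cultures of a day (Org1 and Org2) came from 1 cell line in 1 experiment, so the p-values measure the spread between these cultures only. D25, with 2 libraries, entered the fit for its estimate of spread.

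A kidney organoid is made by passing pluripotent cells through intermediate mesoderm to nephron progenitors, which form podocytes, proximal tubule and distal segments beside stroma. The protocols also leave cells of other origins, among them neurons, neural crest derivatives and skeletal muscle. Such cultures keep changing after their nephrons have formed, and bulk RNA holds all of these cells at once.

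Library totals ran from 19073609 to 30282025 reads in the replicated experiment and were 29408687 (D21) and 25508651 (D29) in the other. The D29 replicates lay further apart than the D21 replicates: 0.239% of genes differed by more than 1 on the log2 scale on D29, against 0.0723% on D21. The summed level of 13 podocyte genes was 13531 and 14135 CPM in the D21 libraries and 9616 and 4749 CPM in the D29 libraries, and that of 14 stromal matrix genes was 5632 and 4878 CPM and 16613 and 20801 CPM. D29 replicate 2 thus held fewer podocyte transcripts than D29 replicate 1. White cell and globin genes were close to absent: 9 of 25 were listed, with a summed level of 9.34 and 8.29 CPM on D21 and 5.43 and 4.18 CPM on D29, and PTPRC, CD3E and HBA1 were not listed.

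Levels are given as log2(CPM + 1), where CPM is reads scaled to a common library total, and a fold change on this scale understates that of low genes. Called genes passed an adjusted p under 0.05 in limma across all 27650 genes. On D29, 2778 genes (10.0%) were higher and 2303 (8.33%) lower than on D21, 18.4% in all, and 8727 genes had an unadjusted p under 0.05. Of the called genes, 971 rose and 395 fell by 1 or more on the log2 scale. Whatever the test, 3.53% of genes lay at 1 or above and 1.46% at -1 or below, against 3.09% and 1.41% of the 20121 genes in the single-library table. Both D29 libraries lay above both D21 libraries in 27.1% of all 27650 genes and below them in 32.8%. A lack of overlap between days was therefore common, and for genes picked for a large change it was close to fixed by the choice. Of the called genes listed in both tables, 2228 of 2537 higher genes (87.8%) and 1488 of 2036 lower genes (73.1%) moved the same way in the single-library experiment, which has no test of its own. Its table lists only genes with at least 12 reads in every library, so genes near 0 on either day are not in it. Centring each library on its median turned the split to 2408 higher and 4667 lower, with the median gene at -0.12 in place of -0.02.

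The 12 largest rises outside the stromal matrix list, like the 12 largest falls, were taken among called genes with the same direction in both experiments, so that their agreement was fixed by the choice. MMP7 (GRCh38, chromosome 11, 102520508 to 102530750) encodes a matrix metalloproteinase of injured and developing epithelia. Its level was 3.53 and 2.89 on D21 and 7.19 and 7.84 on D29. This was a 19.7-fold rise (log2 fold change 4.3 ± 0.25 SE, limma adjusted p = 9.41e-05). HGF, the growth factor that binds the MET receptor, was at 0.85 and 0.43 on D21 and 4.46 and 4.7 on D29 (log2 fold change 3.94 ± 0.18 SE, limma adjusted p = 4.33e-05). INHBA, which encodes the activin A subunit, was at 2.1 and 1.75 on D21 and 6.0 and 5.71 on D29 (log2 fold change 3.93 ± 0.17 SE, limma adjusted p = 4.08e-05). In each of these genes both D29 libraries lay far above both D21 libraries. The single-library differences were 3.23, 1.67 and 2.58. The other 9 of the 12 largest rises were ELN (elastin), COL12A1 and COL21A1 (collagens), C7 (a complement component), A2M (a protease inhibitor), NFIX and BARHL2 (transcription factors), MAB21L2 (a developmental regulator) and NSG2 (a neuronal trafficking protein), with log2 fold changes from 3.47 to 3.83.

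The largest falls outside the podocyte list began with DSC1, a desmosomal cadherin. It stood at 6.82 and 7.21 on D21 and 3.58 and 2.71 on D29 (log2 fold change -3.87 ± 0.27 SE, limma adjusted p = 0.000146). In the single-library experiment it stood at 6.21 on D21 and 2.82 on D29. HEPACAM, a cell adhesion protein best known from glia, was at 5.18 and 5.39 on D21 and 2.3 and 1.67 on D29 (log2 fold change -3.3 ± 0.2 SE, limma adjusted p = 9.48e-05). DGKG, a diacylglycerol kinase, was at 4.05 and 4.34 on D21 and 1.07 and 0.83 on D29 (log2 fold change -3.24 ± 0.18 SE, limma adjusted p = 7.89e-05). No D29 library reached a D21 library in any of these. The remaining 9 were CRYGN, CAVIN2, ITIH5, NIBAN1, ADRA2A (an adrenergic receptor), IRX4, ACAN (aggrecan), MYOM2 and FOSB. FOSB, an immediate early gene, had the widest spread, 6.82 and 5.47 on D21 and 4.2 and 1.83 on D29. Its call was lost in DESeq2, with a pseudocount of 0.1, without the trend, and without either D21 library or D29 replicate 2.

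The D24 control library of single cells in the same series gave another readout of which cells held these transcripts. It was taken from whole wells between the 2 days. Its label reads D24 Ctrl 24h, and by the paper its organoids had received vehicle for 24 h. Of its 12494 barcodes, 11906 held more than 500 genes. Cells were set apart where they held at least 3 of the fixed markers of a cell type and more than of any other type. They numbered 1842 with stroma markers, 1544 with podocyte markers, 1212 with neuron markers, 781 with Schwann cell and neural crest markers, 218 with proximal tubule markers and 217 with skeletal muscle markers. Each other type had 26 cells or fewer and was left out, and 6026 cells fell in no set. Types with only 3 markers, endothelium among them, needed every marker, and red cells, with 2, could not pass. These numbers therefore do not measure how common a type was. Genes used as markers, such as ACAN, and genes with fewer than 30 UMIs in these sets were not placed, which left 10 of the 12 largest falls. Of these 10 falls, 8 were highest in the podocyte set. ITIH5 gave 203 (95% interval 196 to 210) UMI CPM there and 7.7 (95% interval 6.33 to 9.27) in the stroma set. The intervals are exact Poisson and cover counting error in 1 library only. Of the 12 largest rises, 8 were highest in the stroma set, such as C7 at 212 (95% interval 204 to 220) against 13.9 (95% interval 12.1 to 15.7) in the podocyte set. MMP7 was highest in the muscle set, at 72.4 against 65.9 over all cells. BARHL2, MAB21L2 and NSG2 were highest in the neuron set, at 60.5, 32.6 and 75.2. Over all genes called with a log2 fold change of at least 1, 38.4% of the higher genes were highest in the stroma set and 38.4% in the neuron set. In contrast, 50.5% of the lower genes were highest in the podocyte set and 31.6% in the proximal tubule set. The shares over all genes tested were 15.1%, 24.9%, 22.8% and 16.1%. In bulk libraries, fewer cells of a type and less RNA of a gene in each cell cannot be told apart. Median UMIs per cell ran from 5958 in the podocyte set to 19146 in the proximal tubule set, and doublets and free RNA were not removed.

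**Figure D1:**
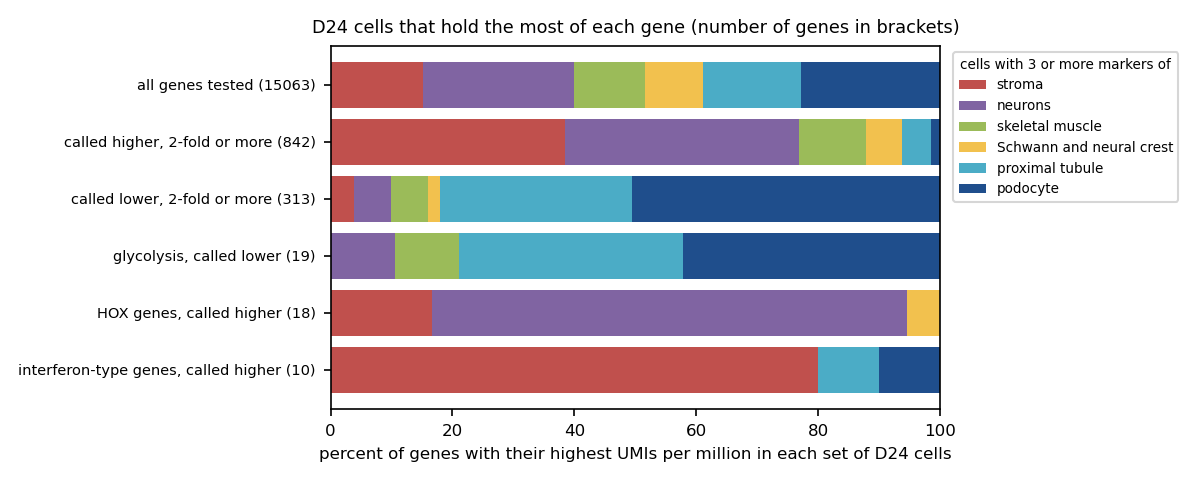
Share of genes (horizontal axis, percent) whose UMI CPM in the D24 control library were highest in each of 6 sets of cells, for all genes tested and for groups called on D29 against D21, with the number of genes in brackets. Lower genes of 2-fold or more were mostly highest in cells with podocyte or proximal tubule markers (50.5% and 31.6%), and higher genes in cells with stroma or neuron markers (38.4% and 38.4%).

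Genes were then read in 48 lists of named functions, beside the podocyte and stromal lists kept as context. The shares over all genes tested were 10.0% higher and 8.33% lower. Of 16349 protein-coding genes among them 2425 were higher and 1833 lower, which are larger shares. Lists near or below these shares, such as p53 targets (16% higher and 12% lower), are not set apart by their counts. The same holds for S phase histones (11.1% and 5.56%) and chaperones of the endoplasmic reticulum (4.76% and 4.76%). It also holds for nuclear respiratory chain genes (0% and 4.76%) and ribosomal proteins (6.06% and 0%). Where a list had no call in a direction in limma, at most 3 of its genes passed an unadjusted p under 0.05 that way, at most 2 were called in edgeR and 0 in DESeq2. The highest shares called were in neurons, mural cells and retinoic acid genes for rises, and in glycolysis, the loop of Henle and melanocytes for falls.

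**Figure D2:**
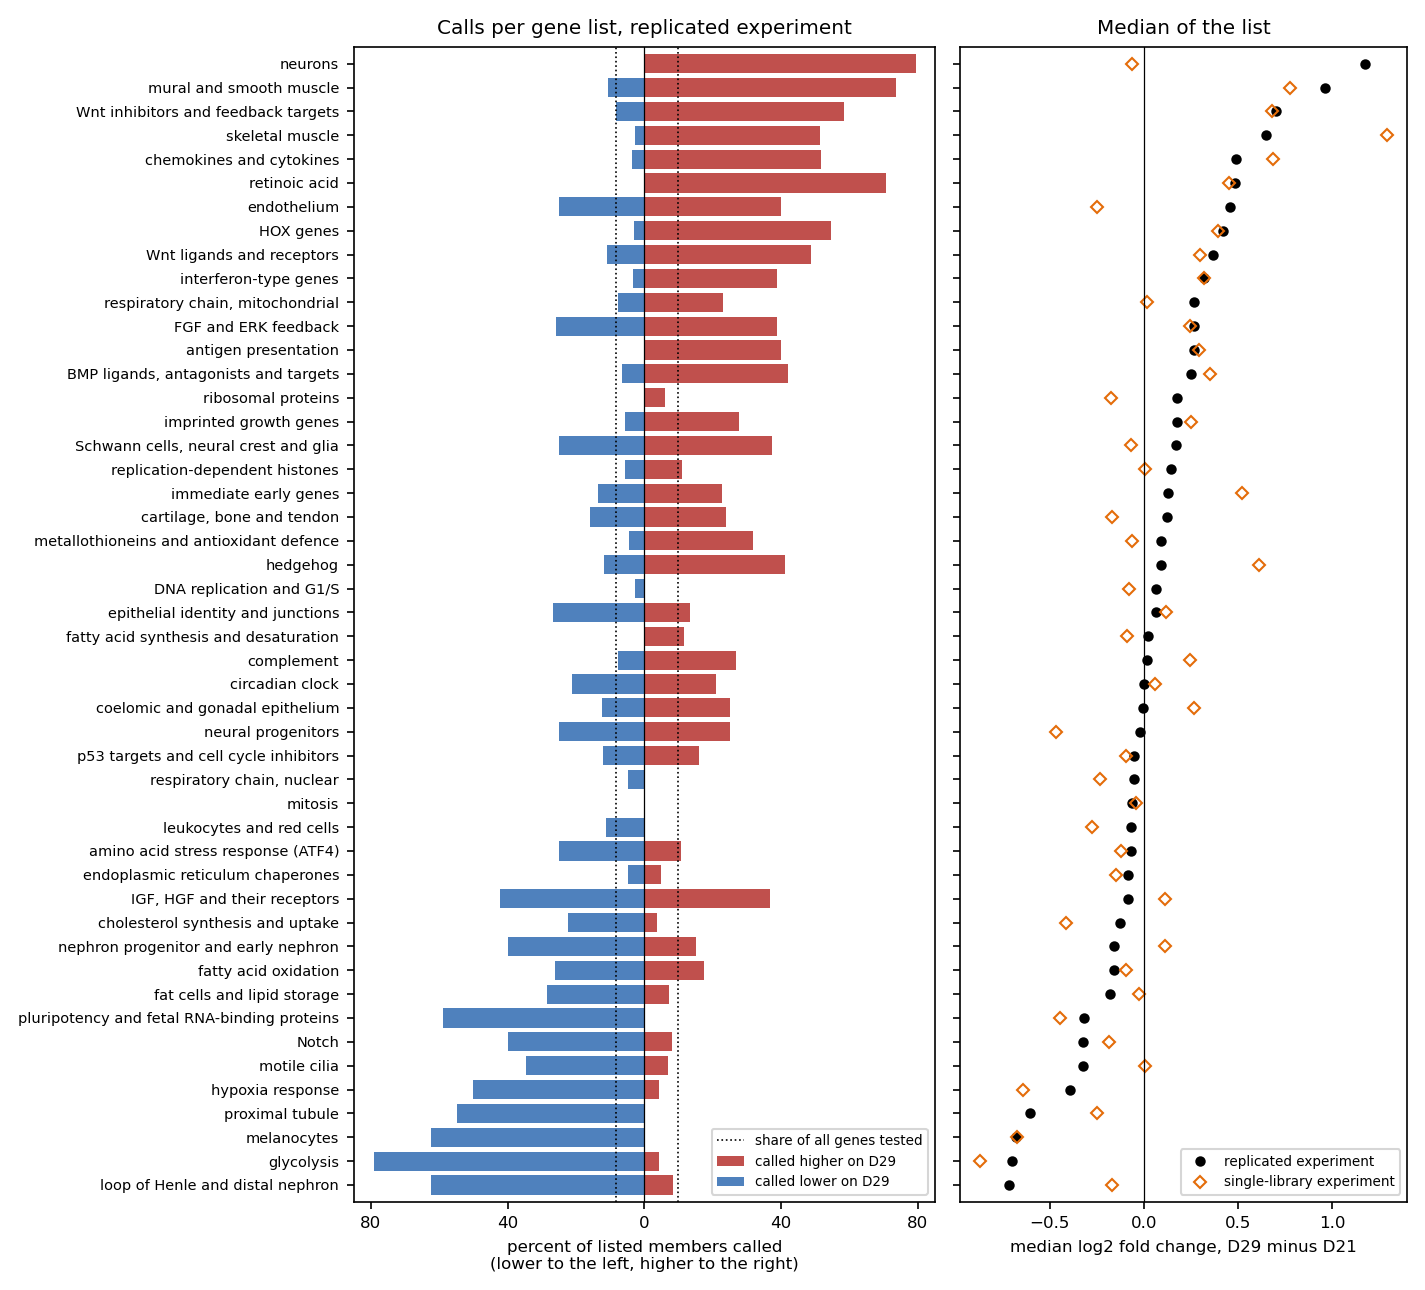
Left, percent of the listed members of 48 gene lists called lower (blue, to the left) or higher (red, to the right) on D29 than on D21 in the replicated experiment, with dotted lines at the shares of all genes tested (8.33% and 10.0%). Right, median log2 fold change of each list in the replicated (filled circles) and single-library (open diamonds) experiments: glycolysis lay below 0 in both, and neurons lay at 1.17 in the first and -0.06 in the second.

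Most glycolysis genes fell. Glycolysis splits glucose to pyruvate, and cells that rely on it take glucose up through GLUT transporters and export lactate through monocarboxylate transporters. Of 24 genes, 19 were called lower and 1 higher, against 8.33% and 10.0% of all genes. Their median log2 fold change was -0.70 in the replicated and -0.87 in the single-library experiment. All 20 called members moved the same way in both. The lower count was 11 without D21 replicate 2, and 16 without D29 replicate 2, the library with the fewest podocyte transcripts. The rise was lost without any 1 library other than D29 replicate 1.

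SLC16A1, the monocarboxylate transporter MCT1 (GRCh38, chromosome 1, 112911847 to 112957593), had the largest fall of the pathway. Its level was 8.65 and 8.93 on D21 and 6.6 and 6.31 on D29, with both D25 libraries between (log2 fold change -2.34 ± 0.13 SE, limma adjusted p = 7.64e-05). It was 8.5 on D21 and 6.45 on D29 in the single-library experiment. HK2, the hexokinase isoform of fetal and fast-growing tissues, was at 7.71 and 7.73 on D21 and 6.54 and 6.27 on D29 (log2 fold change -1.32 ± 0.09 SE, limma adjusted p = 0.000148). SLC2A1, the glucose transporter GLUT1, was at 9.05 and 9.03 on D21 and 8.15 and 7.66 on D29 (log2 fold change -1.13 ± 0.14 SE, limma adjusted p = 0.0014). PFKFB4, which makes the activator of phosphofructokinase, was at 6.86 and 6.79 on D21 and 5.77 and 5.51 on D29 (log2 fold change -1.18 ± 0.1 SE, limma adjusted p = 0.000237). Every D29 library was below every D21 library in these genes, as was so in 32.8% of all genes. HK1, the housekeeping hexokinase, was the exception and rose from 6.26 and 6.26 on D21 to 6.52 and 6.87 on D29 (log2 fold change 0.44 ± 0.11 SE, limma adjusted p = 0.0317). This call was lost without any 1 library other than D29 replicate 1, in the fit of 4 libraries, with a pseudocount of 0.1 and without the trend.

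Among targets of the hypoxia-inducible factors outside glycolysis, falls again outnumbered rises. Of 24 genes, 12 were called lower and 1 higher, all 13 with the same direction in the single-library experiment, with medians of -0.39 and -0.64. The lower count was 7 without D21 replicate 2. AK4, a mitochondrial adenylate kinase, was at 6.61 and 6.53 on D21 and 5.62 and 5.05 on D29 (log2 fold change -1.24 ± 0.16 SE, limma adjusted p = 0.00155). NDUFA4L2, which restrains complex I in low oxygen, was at 4.73 and 4.82 on D21 and 3.65 and 3.44 on D29 (log2 fold change -1.23 ± 0.11 SE, limma adjusted p = 0.0003). VEGFA, the vascular growth factor that podocytes secrete, was at 10.66 and 10.66 on D21 and 9.89 and 9.02 on D29 (log2 fold change -1.21 ± 0.24 SE, limma adjusted p = 0.0111). Its call was lost without D21 replicate 1 or D21 replicate 2. EGLN3, a prolyl hydroxylase that marks the hypoxia factors for destruction, rose (log2 fold change 0.69 ± 0.12 SE, limma adjusted p = 0.00757; lost without D21 replicate 1). CA9, a carbonic anhydrase much used as a hypoxia marker, was low on both days (0.48 and 0.26 on D21 and 0.6 and 0.89 on D29, limma adjusted p = 0.15).

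The promoters of these 2 lists were searched for the letters ACGTG. Since the hypoxia list was chosen as targets of the hypoxia-inducible factors, a high share there was in part set by the choice. ACGTG is a common form of the core that hypoxia-inducible factors bind, and the stretch around it is shown for the 2 genes of these lists with the largest fall among those that hold it. The sequences are from RefSeq on GRCh38.p14, within the 250 bases before the gene start, with the core on either strand in capitals.
HK2 (chr2:74834044-74834118, plus strand): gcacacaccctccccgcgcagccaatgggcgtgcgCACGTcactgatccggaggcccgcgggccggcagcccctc
AK4 (chr1:65147425-65147499, plus strand): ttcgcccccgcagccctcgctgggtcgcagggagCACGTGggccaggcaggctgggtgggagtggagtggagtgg
In HK2 the core reads on the reverse strand, and in AK4 the letters CACGTG read alike on both strands. The core stood in the promoters of 14 of 22 glycolysis genes (63.6%) and 14 of 19 hypoxia genes (73.7%) that have an entry, against 26.7% of all genes tested. Within glycolysis it was in 11 of 17 genes called lower and in 3 of 4 that were not called, and within the hypoxia list in 6 of 9 and 8 of 9. A match is a description of letters and no measurement of binding.

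In the D24 cells, 8 of the 19 falling glycolysis genes were highest in the podocyte set, 7 in the proximal tubule set and none in the stroma set. SLC16A1 gave 149 (95% interval 143 to 155) UMI CPM in the podocyte set and 32.1 (95% interval 29.2 to 35.2) in the stroma set. VEGFA gave 560 (95% interval 549 to 572) and 61.5 (95% interval 57.5 to 65.7). The podocyte and proximal tubule transcripts fell over the same days, and their part in the fall of these pathways was not tested.

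**Figure D3:**
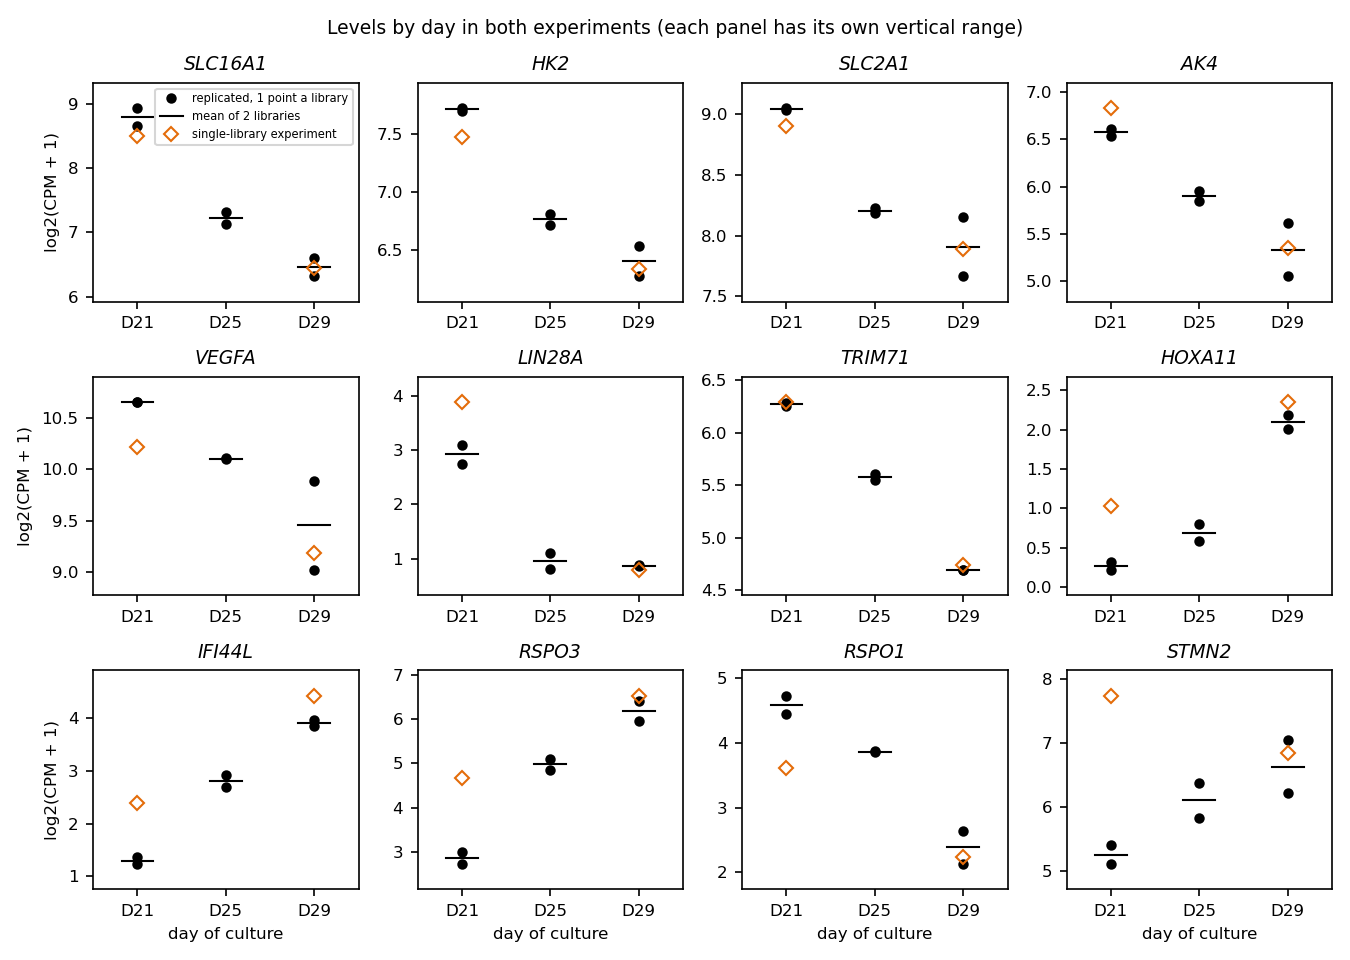
log2(CPM + 1) of 12 genes by day of culture, each panel with its own vertical range. Filled circles are the 2 libraries of a day in the replicated experiment with their mean as a bar, and open diamonds are the D21 and D29 libraries of the single-library experiment, whose table was normalised separately: SLC16A1 fell and RSPO3 rose in both, while STMN2 rose in the first and stood lower on D29 in the second.

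Most genes of the early embryo that were listed fell. LIN28A and LIN28B are RNA-binding proteins that block maturation of the let-7 microRNAs, TRIM71 is a let-7 target that keeps progenitors from differentiating, and SALL4 is a stem cell transcription factor. Of 17 pluripotency factors and fetal RNA-binding proteins, 10 were called lower and none higher, and all 10 moved the same way in the single-library experiment. LIN28A (GRCh38, chromosome 1, 26410817 to 26429728) went from 2.74 and 3.1 on D21 to 0.86 and 0.89 on D29 (log2 fold change -2.05 ± 0.18 SE, limma adjusted p = 0.000316). It went from 3.89 on D21 to 0.79 on D29 in the single-library experiment. The D25 mean of LIN28A was already 0.96. TRIM71 was at 6.29 and 6.25 on D21 and 4.69 and 4.69 on D29 (log2 fold change -1.58 ± 0.07 SE, limma adjusted p = 4.08e-05). SALL4 was at 4.83 and 4.83 on D21 and 2.98 and 3.35 on D29 (log2 fold change -1.67 ± 0.13 SE, limma adjusted p = 0.000214). Neither overlapped between days. ZFP42 also fell (log2 fold change -1.27 ± 0.15 SE, limma adjusted p = 0.00125). POU5F1 and NANOG, the core pluripotency factors, were low on both days (0.78 and 1.05 on D21 and 1.0 and 0.64 on D29 for POU5F1), and neither passed the test (limma adjusted p = 0.787 and 0.262).

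Of 36 genes of mitosis, the separation of the copied chromosomes, none was called at this threshold in limma. At an unadjusted p under 0.05, 1 mitosis gene was higher and 2 lower, and edgeR and DESeq2 called 0 of them. MKI67, the proliferation antigen, was at 7.7 and 7.76 on D21 and 7.62 and 7.72 on D29 (log2 fold change -0.06 ± 0.07 SE). TOP2A, the topoisomerase of dividing cells, was at 7.3 and 7.36 on D21 and 7.27 and 7.33 on D29 (log2 fold change -0.03 ± 0.10 SE). Over the 36 mitosis genes the fold changes ran from -0.32 to 0.23. Centring on the median called 2 mitosis genes lower. Among p53 targets and cell cycle inhibitors 4 of 25 rose and 3 fell. CDKN1A, the p21 inhibitor of cyclin-dependent kinases, was among the rises (log2 fold change 0.54 ± 0.13 SE, limma adjusted p = 0.0245), and the rises numbered 1 without D21 replicate 1, 1 without D21 replicate 2 and 1 without D29 replicate 2. The falls of that list numbered 1 without D21 replicate 2. Histone genes of the S phase gave 2 rises and 1 fall of 18, and the rises numbered 0 without D21 replicate 1, 0 without D21 replicate 2 and 0 without D29 replicate 2. The fall was lost without D21 replicate 2 or D29 replicate 2.

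More tubule genes fell than rose in the replicated experiment. Of 31 proximal tubule genes 17 were called lower and none higher, and of 24 genes of the loop of Henle and distal nephron 15 were lower and 2 higher. The median log2 fold changes were -0.61 and -0.72, but -0.25 and -0.17 in the single-library experiment, where 13 of 16 and 13 of 15 called members moved the same way. The loop and distal count was 8 without D21 replicate 1. UMOD and SLC12A3 were not listed.

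HNF4A, the transcription factor that drives proximal tubule maturation, stood at 6.94 and 6.9 on D21 and 5.15 and 5.13 on D29 (log2 fold change -1.78 ± 0.07 SE, limma adjusted p = 3.4e-05). SLC34A1, the sodium phosphate cotransporter, was at 7.14 and 6.48 on D21 and 4.99 and 5.04 on D29 (log2 fold change -1.8 ± 0.18 SE, limma adjusted p = 0.00053). It stood higher on D29 in the single-library experiment, by 0.47. LRP2, the endocytic receptor megalin, was at 8.78 and 8.63 on D21 and 7.48 and 7.01 on D29 (log2 fold change -1.46 ± 0.14 SE, limma adjusted p = 0.000441). Its partner CUBN, cubilin, overlapped between days (8.04 and 7.42 on D21 and 7.42 and 6.93 on D29, limma adjusted p = 0.113). In the distal list, SLC12A1, the transporter of the thick ascending limb, was at 4.78 and 3.91 on D21 and 2.31 and 2.48 on D29 (log2 fold change -1.95 ± 0.25 SE, limma adjusted p = 0.00144). IRX1 and IRX2, factors of the mid nephron, fell by similar amounts (-1.92 and -1.68). The 2 rises were RET, the GDNF receptor of the ureteric tip, at 2.01 and 1.64 on D21 and 3.86 and 3.98 on D29 (log2 fold change 2.1 ± 0.16 SE, limma adjusted p = 0.000188) and GATA2 (log2 fold change 1.27 ± 0.09 SE, limma adjusted p = 0.000165). In the D24 cells RET was highest in the neuron set, at 1.34 (95% interval 0.73 to 2.24) UMI CPM, and GATA2 in the stroma set, at 11.2 (95% interval 9.5 to 13). GDNF, the ligand of RET, fell (log2 fold change -0.94 ± 0.16 SE, limma adjusted p = 0.0063; lost without D21 replicate 2).

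Early nephron genes split, although the share that rose, 15%, was near that of all protein-coding genes (2425 of 16349). WNT4, which drives the mesenchymal to epithelial transition of the nephron and is also made by medullary stroma, rose (log2 fold change 1.44 ± 0.09 SE, limma adjusted p = 9.88e-05). It was highest in the stroma set of the D24 cells, at 92.8 (95% interval 87.9 to 97.9) UMI CPM against 6.42 (95% interval 4.56 to 8.77) in the proximal tubule set. OSR1 and SIX2, factors of the nephron progenitor, rose (1.19 and 1.12), although SIX2 stayed low (0.74 and 0.74 on D21 and 1.82 and 1.9 on D29). OSR1 too was highest in the stroma set, and SIX2, a marker used, was not placed. JAG1, the Notch ligand of the early tubule, was at 9.64 and 9.78 on D21 and 8.39 and 8.32 on D29 (log2 fold change -1.36 ± 0.09 SE, limma adjusted p = 0.000109). PAX8, a factor of the nephron lineage, was at 9.44 and 9.59 on D21 and 8.53 and 8.48 on D29 (log2 fold change -1.01 ± 0.09 SE, limma adjusted p = 0.00034). SALL1 and PAX2 were called lower too (-0.53 and -0.69), but stood higher on D29 in the single-library experiment (0.35 and 0.46); the call of SALL1 was lost without D21 replicate 2. Of 20 genes 3 rose and 8 fell (15% and 40%, against 10.0% and 8.33% of all genes), and the falls numbered 4 without D21 replicate 2.

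Notch genes that were called mostly fell, as JAG1 did. Of 25, 10 were called lower and 2 higher, and 10 of the 12 moved the same way in the single-library experiment. HEY1, a repressor that Notch induces, was at 5.34 and 5.71 on D21 and 4.23 and 4.03 on D29 (log2 fold change -1.4 ± 0.14 SE, limma adjusted p = 0.000536). HES4, another, was at 7.4 and 7.45 on D21 and 6.32 and 6.26 on D29 (log2 fold change -1.14 ± 0.07 SE, limma adjusted p = 9.88e-05). NRARP, a feedback inhibitor of the pathway, also fell (log2 fold change -0.9 ± 0.19 SE, limma adjusted p = 0.0145). This call was lost without D21 replicate 2 or D29 replicate 2. The receptors NOTCH1 and NOTCH2 had log2 fold changes of -0.17 and -0.25 and were not called. The lower count was 6 without D21 replicate 2, and the 2 rises were lost without either D21 library or D29 replicate 2.

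Metallothioneins, small proteins that bind zinc, copper and cadmium, were read in 1 list with antioxidant defence, of which 7 of 22 genes rose and 1 fell. MT1G was at 3.34 and 1.77 on D21 and 5.64 and 4.56 on D29 (log2 fold change 2.54 ± 0.5 SE, limma adjusted p = 0.011). MT1H was at 1.96 and 0.83 on D21 and 4.4 and 3.38 on D29 (log2 fold change 2.5 ± 0.41 SE, limma adjusted p = 0.00497). MT2A was at 2.42 and 1.57 on D21 and 4.13 and 3.53 on D29 (log2 fold change 1.83 ± 0.29 SE, limma adjusted p = 0.0039). In each of them replicate 1 stood above replicate 2 on both days, and the days did not overlap. The single-library differences were 0.5, 0.28 and 0.16. The D24 cells held them in the proximal tubule set, with MT1G at 772 (95% interval 750 to 795) UMI CPM there and 9.5 (95% interval 7.97 to 11.2) in the stroma set. Since MT1 genes are near-identical copies, reads may be shared between them. In the same list GPX3, the secreted glutathione peroxidase made by proximal tubule, fell (log2 fold change -0.78 ± 0.08 SE, limma adjusted p = 0.000549). The rises numbered 4 without D21 replicate 2, when MT1G was not called. Among epithelial genes, CDH16, the kidney-specific cadherin, rose (log2 fold change 0.85 ± 0.07 SE, limma adjusted p = 0.000224). PKHD1, the cilium protein of recessive polycystic disease, rose too (log2 fold change 0.78 ± 0.15 SE, limma adjusted p = 0.0111). KRT19, a simple epithelial keratin, fell (log2 fold change -0.99 ± 0.07 SE, limma adjusted p = 0.000127). The list gave 4 rises and 8 falls of 30. The epithelial rises numbered 7 in edgeR and 2 without D21 replicate 2, when PKHD1 was not called, and the falls 4 without D21 replicate 1.

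Neuronal genes rose in the replicated experiment, and not as a group in the other. Of 34 genes 27 were called higher and none lower, with a median log2 fold change of 1.17, whereas the single-library median was -0.06 and 14 of 25 called members moved the same way. The higher count was 17 without D21 replicate 2, and 21 without D29 replicate 2. The summed level of the list was 932 and 1016 CPM on D21 and 1646 and 2498 CPM on D29, and 2931 CPM and 2288 CPM in the single-library experiment. The sum thus rose in both replicates of the first and was lower on D29 in the second, and the difference between experiments was not tested.

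GRIA2, an AMPA glutamate receptor subunit, was at 1.92 and 2.07 on D21 and 4.23 and 4.9 on D29 (log2 fold change 2.57 ± 0.21 SE, limma adjusted p = 0.000243). SLC17A6, a vesicular glutamate transporter, was at 1.69 and 1.57 on D21 and 3.75 and 4.47 on D29 (log2 fold change 2.48 ± 0.23 SE, limma adjusted p = 0.000362). SCG2, a secretory granule protein, was at 2.25 and 2.4 on D21 and 4.47 and 4.97 on D29 (log2 fold change 2.4 ± 0.17 SE, limma adjusted p = 0.000148). These 3 stood higher on D29 in the single-library experiment too, by 0.63, 0.34 and 1.44. STMN2, a regulator of axonal microtubules, was at 5.11 and 5.4 on D21 and 6.22 and 7.04 on D29 (log2 fold change 1.37 ± 0.27 SE, limma adjusted p = 0.0102; lost without D21 replicate 1). It went from 7.74 on D21 to 6.85 on D29 in the other. The neuronal RNA-binding proteins ELAVL2 and ELAVL4 did likewise, with rises of 0.77 and 1.09 in the first and values of -1.08 and -0.98 in the second. ELAVL2 and ELAVL4 were not called without either D21 library or D29 replicate 2. D29 replicate 2 was above D29 replicate 1 in all of these genes. All 22 risers outside the markers used that had enough UMIs were highest in the neuron set of the D24 cells. As the list was made of neuronal genes, this gives their place and says nothing about the change between days.

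Neural progenitor genes split, with 7 of 28 higher and 7 lower, and these moved the same way in the single-library experiment wherever both tables listed them (12 of 12). FABP7, the radial glia lipid carrier, rose (1.79 and 1.17 on D21 and 3.86 and 4.25 on D29; log2 fold change 2.57 ± 0.23 SE, limma adjusted p = 0.000314). So did ZIC1 and ZIC4, factors of dorsal neural tissue (1.43 and 1.42). SOX21 and SOX3, transcription factors of neural progenitors, fell (-1.48 and -1.21). NEUROG1, which commits sensory neurons, fell too (-0.87, and -2.09 in the single-library experiment). The rises numbered 3 without D21 replicate 1 and 3 without D21 replicate 2, and the falls 3 without D21 replicate 1, 2 without D21 replicate 2 and 4 without D29 replicate 1. SOX3 and NEUROG1 were among those lost without either D21 library. Melanocyte genes fell, 5 of 8. PMEL, the scaffold of pigment granules, was at 4.62 and 4.83 on D21 and 3.11 and 3.62 on D29 (log2 fold change -1.36 ± 0.27 SE, limma adjusted p = 0.0109; lost without D21 replicate 1 or D21 replicate 2). TRPM1 went from 1.32 and 1.83 on D21 to 0.07 and 0.03 on D29 (log2 fold change -1.53 ± 0.16 SE, limma adjusted p = 0.000645). TYR was not listed, and the falls numbered 3 without D21 replicate 2. Among Schwann cell and glial genes 9 of 24 rose and 6 fell. S100B (log2 fold change 1.51 ± 0.24 SE, limma adjusted p = 0.00437) and CDH19 (log2 fold change 1.47 ± 0.18 SE, limma adjusted p = 0.00132), both of the Schwann lineage, rose. Its factor SOX10 overlapped between days (4.06 and 4.49 on D21 and 4.22 and 4.75 on D29). The falls of that list numbered 3 without D21 replicate 1 and 3 without D21 replicate 2. In the D24 cells, 5 falls outside the markers used had enough UMIs. Of these, 3 were highest in the podocyte set and 0 in the Schwann cell and neural crest set. Among 8 such rises, 5 were highest in the Schwann cell and neural crest set and 3 in the neuron set.

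More skeletal muscle genes rose than fell, and the single-library experiment moved the same way. Of 35 genes 18 were called higher and 1 lower, with medians of 0.65 and 1.29, and 13 of the 14 called members listed in both tables moved the same way. MYOD1, the master factor of myoblasts, was at 0.93 and 1.24 on D21 and 2.85 and 2.3 on D29 (log2 fold change 1.49 ± 0.21 SE, limma adjusted p = 0.0024). MYOG, which starts fibre differentiation, was at 2.62 and 3.45 on D21 and 4.61 and 4.02 on D29 (log2 fold change 1.28 ± 0.29 SE, limma adjusted p = 0.0186; lost without D21 replicate 1 or D29 replicate 1 and with a pseudocount of 0.1). ACTA1, the skeletal alpha actin, was at 1.32 and 1.17 on D21 and 2.81 and 2.91 on D29 (log2 fold change 1.62 ± 0.16 SE, limma adjusted p = 0.000505). In the single-library experiment ACTA1 stood higher by 2.46 and MYOG by 2.73. TNNT2, the cardiac troponin T that developing skeletal muscle also makes, was the exception (4.17 and 4.55 on D21 and 3.55 and 2.94 on D29; log2 fold change -1.11 ± 0.21 SE, limma adjusted p = 0.00907). It stood higher on D29 in the single-library experiment, by 1.09; its call was lost without D21 replicate 2. The higher count was 7 without D21 replicate 1, and the lower count 0 without D21 replicate 2 and 3 without D29 replicate 1. All 15 risers outside the markers used that had enough UMIs were highest in the muscle set. As the list was made of muscle genes, this too says nothing about the change between days.

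Smooth muscle and mural genes rose, 14 of 19, with 2 falls. ACTA2, the smooth muscle actin, was at 4.37 and 3.64 on D21 and 6.93 and 7.18 on D29 (log2 fold change 3.06 ± 0.2 SE, limma adjusted p = 0.000127). TAGLN, an actin-binding protein of smooth muscle, was at 5.08 and 4.69 on D21 and 7.22 and 7.65 on D29 (log2 fold change 2.55 ± 0.16 SE, limma adjusted p = 0.000106). MYOCD, the coactivator that drives the smooth muscle programme, fell nonetheless (log2 fold change -0.75 ± 0.18 SE, limma adjusted p = 0.0244). RGS5, a pericyte gene, rose (log2 fold change 0.96 ± 0.22 SE, limma adjusted p = 0.0189) but stood lower on D29 in the single-library experiment (-0.58). Both calls were lost without D21 replicate 2 or D29 replicate 2, that of MYOCD also without D29 replicate 1 and that of RGS5 without D21 replicate 1. The falls numbered 1 without D21 replicate 2, 1 without D29 replicate 1 and 1 without D29 replicate 2. Stromal transcripts rose over the same days, and 7 of 14 risers were highest in the stroma set.

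Endothelial genes moved in both directions. PECAM1, KDR and CDH5, the defining markers, rose. PECAM1 went from 2.31 and 2.42 on D21 to 3.61 and 3.88 on D29 (log2 fold change 1.38 ± 0.14 SE, limma adjusted p = 0.000579). CDH5 went from 2.12 and 2.21 on D21 to 3.15 and 3.41 on D29 (log2 fold change 1.11 ± 0.15 SE, limma adjusted p = 0.00202). PECAM1 and CDH5 stood lower on D29 in the single-library experiment (-0.25 and -0.6). CLDN5, a claudin of vessels, fell from 6.68 and 6.99 on D21 to 4.87 and 4.25 on D29 (log2 fold change -2.28 ± 0.19 SE, limma adjusted p = 0.000262). Its log2 fold change was -2.2 in the single-library experiment. In the D24 cells CLDN5 gave 497 (95% interval 487 to 508) UMI CPM in the podocyte set. ESAM, another junction protein that fell (-1.02), was highest in the proximal tubule set at 32.7 (95% interval 28.4 to 37.6). Only 3 cells of the library held all 3 endothelial markers of the gate and more than of any other type. Cells with fewer of them detected were not counted, so this does not measure how many endothelial cells were present. Of 20 genes 8 rose and 5 fell, with medians of 0.46 and -0.25 in the replicated and the single-library experiment, and 9 of 13 called members moved the same way in both. The summed level of the list was 295 and 324 CPM on D21 and 224 and 203 CPM on D29. The falls numbered 3 without D21 replicate 1 and 2 without D21 replicate 2. In cartilage and bone genes 6 of 25 rose and 4 fell. COL9A3, a cartilage collagen, rose (log2 fold change 1.96 ± 0.12 SE, limma adjusted p = 9.66e-05). COL2A1, the main one, and ACAN fell (-0.94 and -2.41).

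HOX genes, which record position along the body axis by their order in 4 clusters, rose. The most caudal members read, of paralog groups 10 and 11, were all among the risers. The genes read were of groups 1 to 11, and none of a higher group was covered. Of 33 genes 18 were called higher and 1, HOXD8, lower (log2 fold change -0.57 ± 0.06 SE, limma adjusted p = 0.000843), and all 17 called members listed in both tables moved the same way. The falls numbered 2 without D25 replicate 1 and 2 without D25 replicate 2, and 2 in edgeR and in DESeq2. The 6 genes of paralog groups 10 and 11, caudal groups that pattern the hindlimb, trunk end and metanephros, were all called, with a median log2 fold change of 1.43. In groups 5 to 9, 10 of 15 were higher with a median of 0.47, and in groups 1 to 4, 2 of 12 with a median of 0.17. These ranges of groups were chosen after the values were seen, and no test was run on the trend. The single-library medians were 0.64, 0.39 and 0.29 for the same ranges, from 4, 15 and 12 genes.

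HOXA11, required for the metanephric kidney (GRCh38, chromosome 7, 27181157 to 27185232), went from 0.33 and 0.22 on D21 to 2.01 and 2.19 on D29 (log2 fold change 1.83 ± 0.14 SE, limma adjusted p = 0.00019). HOXD10 went from 0.57 and 0.31 on D21 to 2.27 and 2.53 on D29 (log2 fold change 1.96 ± 0.16 SE, limma adjusted p = 0.000248). HOXC10 was at 3.64 and 3.72 on D21 and 5.08 and 5.63 on D29 (log2 fold change 1.68 ± 0.18 SE, limma adjusted p = 0.000785). HOXA11 and HOXD10 were both under 1 on D21, and no D21 library reached a D29 library. The higher count of the list was 10 without D21 replicate 1 and 8 without D21 replicate 2. In the D24 cells 14 of the 18 risers were highest in the neuron set and 3 in the stroma set. Neuronal and stromal transcripts rose over these days in the replicated experiment, and their part in the HOX result was not tested. HOX genes overlap antisense transcripts, and since the sources used here give no strand setting for the counting, reads of the 2 strands cannot be told apart.

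**Figure D4:**
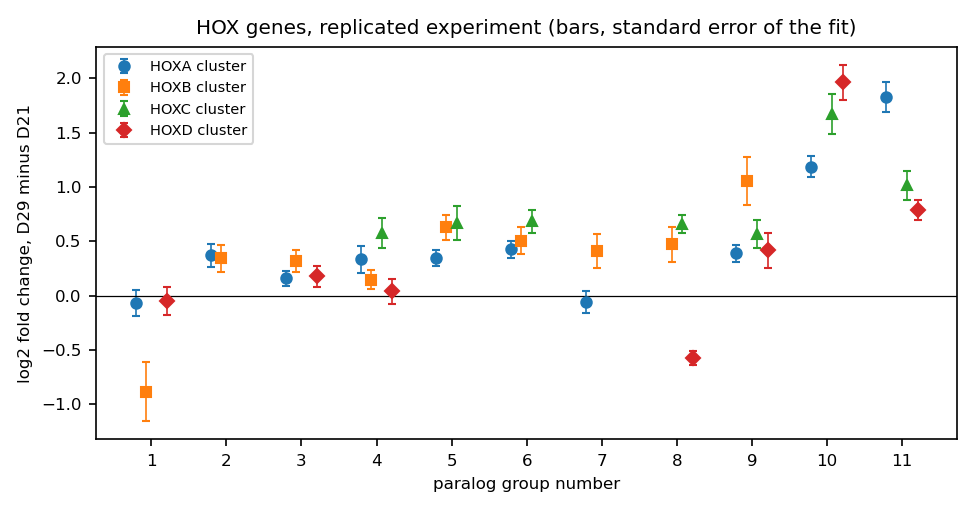
log2 fold change, D29 minus D21, of 33 HOX genes in the replicated experiment (vertical axis, bars give the standard error of the fit) by paralog group number, with the 4 clusters as symbols. The genes of groups 10 and 11 lay between 0.79 and 1.96, above most genes of the lower numbers.

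Most retinoic acid genes rose. Retinoic acid, made from vitamin A by retinol and retinal dehydrogenases, acts through RAR receptors. Of 17 genes 12 were called higher and none lower, all 12 with the same direction in the single-library experiment, with medians of 0.48 and 0.45. ALDH1A3, a retinal dehydrogenase, was at 0.33 and 0.57 on D21 and 2.14 and 2.7 on D29 (log2 fold change 1.97 ± 0.2 SE, limma adjusted p = 0.00062). RDH10, the retinol dehydrogenase before it, was at 6.3 and 6.04 on D21 and 7.35 and 7.57 on D29 (log2 fold change 1.29 ± 0.11 SE, limma adjusted p = 0.000277). RARRES1, a gene named for its response to retinoids, was at 1.77 and 1.02 on D21 and 3.29 and 3.52 on D29 (log2 fold change 2.0 ± 0.24 SE, limma adjusted p = 0.00123). CRABP1, a retinoic acid carrier, rose (log2 fold change 1.9 ± 0.28 SE, limma adjusted p = 0.00314). CRABP1 was highest in the neuron set of the D24 cells, at 5120 (95% interval 5080 to 5160) UMI CPM against 189 in the podocyte set. Of the 12 risers, 5 were highest in the stroma set and 2 in the neuron set. The proximal tubule set held 2, the Schwann cell and neural crest set 2 and the muscle set 1. Stromal transcripts rose over the same days, and their part in this result was not tested. The higher count was 7 without D21 replicate 2. CYP26A1 and CYP26B1, which degrade retinoic acid, were not called (log2 fold changes 0.39 and -0.11); this pair was chosen after its values were seen.

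More Wnt genes were called higher than lower in both lists of the pathway. Of 37 ligands and receptors 18 rose and 4 fell, and of 24 inhibitors and feedback targets 14 rose and 2 fell, with 20 of 21 and 15 of 16 called members moving alike in the single-library experiment. R-spondins, which prolong Wnt signalling at the receptor, moved in opposite directions. RSPO3 went from 3.0 and 2.73 on D21 to 5.96 and 6.41 on D29 (log2 fold change 3.32 ± 0.16 SE, limma adjusted p = 5.73e-05). RSPO1 went from 4.44 and 4.73 on D21 to 2.64 and 2.13 on D29 (log2 fold change -2.2 ± 0.18 SE, limma adjusted p = 0.000247). RSPO3 was highest in the stroma set of the D24 cells, at 339 (95% interval 330 to 349), and RSPO1 in the podocyte set, at 12.8 (95% interval 11.1 to 14.6). The single-library experiment gave 1.87 and -1.38.

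WNT9B, the ureteric signal that induces the nephron, rose from 1.24 and 0.71 on D21 to 3.14 and 3.12 on D29 (log2 fold change 2.15 ± 0.21 SE, limma adjusted p = 0.000493). Of the inhibitors, SFRP2 was at 3.44 and 3.63 on D21 and 5.53 and 6.45 on D29 (log2 fold change 2.45 ± 0.26 SE, limma adjusted p = 0.000714). DKK1, which blocks the LRP coreceptors, was at 4.9 and 4.84 on D21 and 6.74 and 7.53 on D29 (log2 fold change 2.26 ± 0.21 SE, limma adjusted p = 0.000393). FRZB, a relative of SFRP2, fell (log2 fold change -0.69 ± 0.16 SE, limma adjusted p = 0.0193). So did LGR4, an R-spondin receptor (log2 fold change -0.82 ± 0.15 SE, limma adjusted p = 0.00852). The calls of FRZB and LGR4 were lost without D21 replicate 1, that of LGR4 also without D21 replicate 2 and that of FRZB without D29 replicate 1. The rises of ligands and receptors numbered 11 without D21 replicate 2, and their falls 2 without D21 replicate 1 and 2 without D21 replicate 2. The falls of inhibitors and feedback targets numbered 0 without D21 replicate 1, 1 without D21 replicate 2 and 1 without D29 replicate 1.

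**Figure D5:**
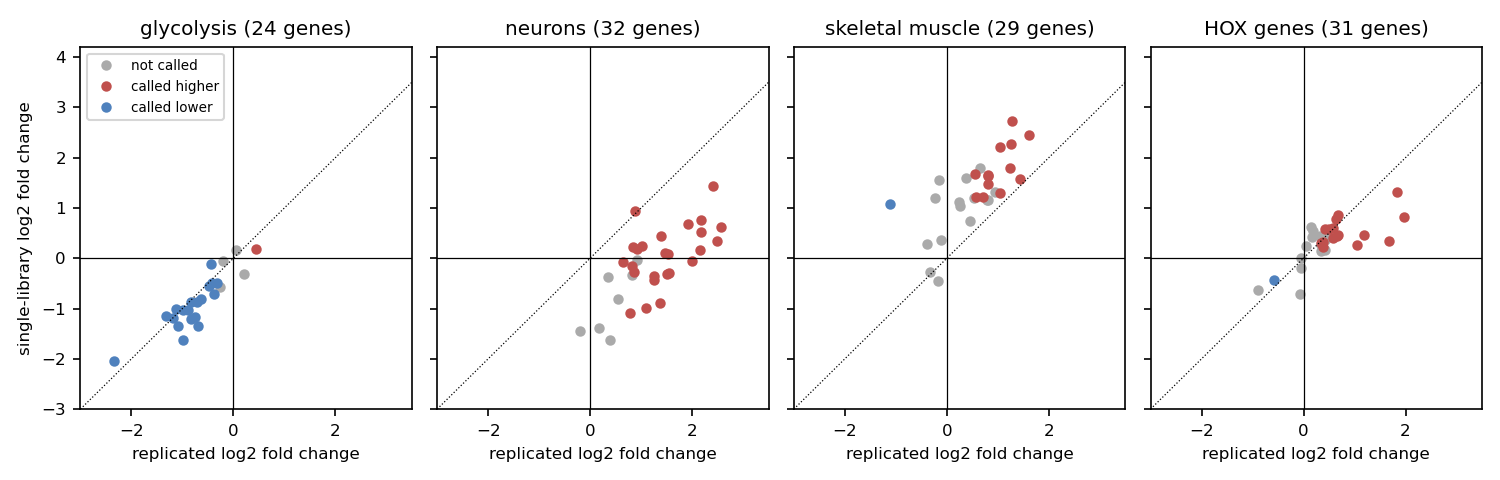
Log2 fold change, D29 minus D21, of each gene of 4 lists in the replicated experiment (horizontal axis) and in the single-library experiment (vertical axis), coloured by the call of the first, with the dotted line at equal values. Glycolysis genes lay along the line below 0, neuronal genes lay right of it on both sides of 0, and muscle genes lay mostly above it.

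Some hedgehog genes rose. GLI1, a factor that is both effector and target, went from 3.21 and 2.92 on D21 to 4.84 and 5.01 on D29 (log2 fold change 1.86 ± 0.13 SE, limma adjusted p = 0.000129). HHIP, a feedback inhibitor, went from 1.32 and 1.72 on D21 to 2.92 and 3.04 on D29 (log2 fold change 1.46 ± 0.18 SE, limma adjusted p = 0.00125). SHH, the ligand, went from 0.85 and 0.64 on D21 to 2.21 and 1.95 on D29 (log2 fold change 1.33 ± 0.19 SE, limma adjusted p = 0.00245). Of 17 genes 7 rose and 2 fell, all 9 with the same direction in the single-library experiment, and the falls numbered 1 without D21 replicate 1 and 1 without D21 replicate 2. Of BMP genes 13 of 31 rose and 2 fell. The extracellular antagonists FST (log2 fold change 1.62 ± 0.1 SE, limma adjusted p = 0.000104) and CHRDL1 (log2 fold change 1.19 ± 0.19 SE, limma adjusted p = 0.0037) were among the rises. The falls were BMP7, the survival factor of nephron progenitors that podocytes also make (7.84 and 8.12 on D21 and 6.75 and 6.53 on D29; log2 fold change -1.33 ± 0.11 SE, limma adjusted p = 0.000243), and GDF11 (log2 fold change -0.88 ± 0.08 SE, limma adjusted p = 0.000309).

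FGF genes moved both ways, 12 of 31 up and 8 down. FGF7, a stromal ligand for epithelia, rose (2.01 and 2.09 on D21 and 3.88 and 4.54 on D29; log2 fold change 2.16 ± 0.23 SE, limma adjusted p = 0.000645). FGF8, a survival signal of the early nephron, fell close to 0 (2.75 and 2.85 on D21 and 0.39 and 0.71 on D29; log2 fold change -2.25 ± 0.17 SE, limma adjusted p = 0.00019). FGF1 fell with a wide spread on D29 (5.45 and 5.38 on D21 and 4.3 and 2.83 on D29; log2 fold change -1.85 ± 0.38 SE, limma adjusted p = 0.013). It was not called without D21 replicate 1 or D21 replicate 2. The FGF rises numbered 7 without D21 replicate 1 and 7 without D21 replicate 2, and the falls 4 without D21 replicate 1 and 3 without D21 replicate 2. Of IGF and HGF genes 7 of 19 rose and 8 fell. IGF1 went from 2.86 and 2.79 on D21 to 5.8 and 5.64 on D29 (log2 fold change 2.9 ± 0.11 SE, limma adjusted p = 3.4e-05). PAPPA, the protease that frees IGF from its binding proteins, went from 7.33 and 7.41 on D21 to 6.03 and 5.58 on D29 (log2 fold change -1.56 ± 0.14 SE, limma adjusted p = 0.000294). In the D24 cells IGF1 was highest in the stroma set, at 228 (95% interval 220 to 235), and PAPPA in the podocyte set, at 90.3 (95% interval 85.9 to 95). IGF2, the fetal ligand, was not called (10.62 and 10.78 on D21 and 10.47 and 10.52 on D29). The rises of this list numbered 4 without D21 replicate 2, and the falls 2 without D21 replicate 1, 2 without D21 replicate 2 and 5 without D29 replicate 2.

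Some genes of antiviral defence rose. Interferons act on promoters that carry a short response element, and these cultures were not labelled as treated. Of 31 interferon-type genes 12 were called higher and 1 lower, with a median of 0.32 in both experiments. IFI44L (GRCh38, chromosome 1, 78619902 to 78646145) was at 1.24 and 1.37 on D21 and 3.85 and 3.97 on D29 (log2 fold change 2.61 ± 0.15 SE, limma adjusted p = 9.41e-05). IFI44 was at 0.57 and 0.39 on D21 and 2.63 and 3.03 on D29 (log2 fold change 2.35 ± 0.18 SE, limma adjusted p = 0.00019). OAS3, which senses double-stranded RNA, was at 1.96 and 1.5 on D21 and 3.04 and 3.5 on D29 (log2 fold change 1.54 ± 0.22 SE, limma adjusted p = 0.00271). In the single-library experiment they stood higher on D29 by 2.03, 1.6 and 1.14. ISG15 and STAT2 were not called (log2 fold changes -0.08 and -0.05; STAT2 was chosen after its values were seen). The lower count was 2 without D21 replicate 2 and 2 without D29 replicate 1. The higher count was 7 without D21 replicate 1 and 6 without D21 replicate 2, and 9, with 4 falls, when each library was centred on its median.

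The response element of interferon-stimulated genes was searched as GAAA, any 2 letters and GAAA again, on both strands of the 250 bases before the start. The stretches around it are shown for the 3 risers with the largest change that hold it, from RefSeq on GRCh38.p14, with the match in capitals. The starts are those of RefSeq, and for IFI44L the stretch lies inside the GENCODE bounds printed above.
IFI44L (chr1:78620340-78620419, plus strand): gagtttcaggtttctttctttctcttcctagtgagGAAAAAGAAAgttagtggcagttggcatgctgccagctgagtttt
IFI44 (chr1:78649736-78649788, plus strand): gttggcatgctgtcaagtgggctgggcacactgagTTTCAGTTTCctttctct
OAS3 (chr12:112938427-112938473, plus strand): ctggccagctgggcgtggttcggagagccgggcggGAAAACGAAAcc
In IFI44 the match lies on the reverse strand. These letters stood in the promoters of 7 of 8 risers with an entry and of 8 of 14 members that were not called. They also stood in that of the 1 member called lower. Over the list this was 16 of 23 members with an entry (69.6%), against 3.37% of all genes tested. Since the list was chosen as interferon-type genes, a high share was in part set by the choice. A match here too is a description of letters and no measurement of binding.

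BST2, which tethers virus particles to the cell, went against the list, from 8.38 and 8.62 on D21 to 7.45 and 6.94 on D29 (log2 fold change -1.3 ± 0.16 SE, limma adjusted p = 0.00117). It was highest in the podocyte set of the D24 cells, at 2620 (95% interval 2590 to 2640) UMI CPM, while 8 of 10 risers were highest in the stroma set. Of 20 antigen presentation genes 8 rose and none fell. B2M, the light chain of class I molecules, was at 5.21 and 4.8 on D21 and 6.15 and 6.32 on D29 (log2 fold change 1.23 ± 0.14 SE, limma adjusted p = 0.000977). PSMB8, a subunit of the immunoproteasome, was at 1.94 and 1.94 on D21 and 3.17 and 3.61 on D29 (log2 fold change 1.45 ± 0.18 SE, limma adjusted p = 0.00124). The rises numbered 5 without D21 replicate 1, 3 without D21 replicate 2 and 5 without D29 replicate 2.

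Of 27 chemokines and cytokines 14 rose and 1, IL18, fell (log2 fold change -0.67 ± 0.12 SE, limma adjusted p = 0.00588). CXCL12, the stromal chemokine that guides progenitors, was at 6.47 and 6.33 on D21 and 7.97 and 8.55 on D29 (log2 fold change 1.86 ± 0.17 SE, limma adjusted p = 0.00034). CCL2, which attracts monocytes, was at 1.96 and 1.48 on D21 and 3.3 and 3.42 on D29 (log2 fold change 1.64 ± 0.19 SE, limma adjusted p = 0.00104). IL33, an alarmin of stromal nuclei, rose from near 0 (0.16 and 0.08 on D21 and 1.49 and 2.22 on D29; log2 fold change 1.74 ± 0.24 SE, limma adjusted p = 0.00198). Complement genes gave 7 rises and 2 falls of 26. CFI, the protease that inactivates C3b, rose (log2 fold change 2.52 ± 0.17 SE, limma adjusted p = 0.000129). C4B also rose (1.58), with reads it may share with its near-identical copy. The complement rises numbered 4 without D21 replicate 2, when C4B was not called, and the falls 0 without D21 replicate 1, 1 without D21 replicate 2, 1 without D25 replicate 1, 1 without D25 replicate 2 and 0 without D29 replicate 2.

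Of 42 nuclear genes of the respiratory chain 2 fell and none rose, both falls being lost in DESeq2 and without any 1 library other than D29 replicate 1. In edgeR 2 of these 42 genes were called higher and 1 lower. Their median was -0.06 in the replicated and -0.24 in the single-library experiment, where 34 stood lower on D29 and 8 higher. Of 33 ribosomal proteins 2 rose and none fell, with a median of 0.18 in the replicated and -0.17 in the single-library experiment. The rises of ribosomal proteins numbered 0 without D21 replicate 1, 0 without D21 replicate 2, 1 without D25 replicate 1, 1 without D25 replicate 2, 8 without D29 replicate 1 and 0 without D29 replicate 2. They numbered 7 in edgeR, 10 in DESeq2 and 0 with median centring or without the trend. Of 13 mitochondrial genes of the respiratory chain 3 rose and 1, MT-ND6, fell (log2 fold change -0.78 ± 0.2 SE, limma adjusted p = 0.029), against 0.64 in the single-library experiment. Its call was lost without either D21 library or D29 replicate 1, and the rises numbered 0 without D21 replicate 2 and 1 without D29 replicate 2, against 6 in edgeR and 6 in DESeq2.

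Cholesterol synthesis genes gave 6 falls and 1 rise of 27, with medians of -0.13 and -0.41. HMGCS1, the first committed step, fell (log2 fold change -0.45 ± 0.07 SE, limma adjusted p = 0.00286). The falls numbered 2 without D21 replicate 1, 1 without D21 replicate 2 and 3 without D29 replicate 2. Of 17 genes of fatty acid synthesis 2 rose and none fell, of 14 of fat cells and lipid storage 1 rose and 4 fell, the rise being lost in DESeq2 and without any 1 library, and of 21 chaperones of the endoplasmic reticulum 1 rose and 1 fell, with 7 falls without D29 replicate 1.

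Of 28 genes of the amino acid response 3 rose and 7 fell. NUPR1, a stress cofactor, rose from near 0 (0.85 and 0.08 on D21 and 3.17 and 3.69 on D29; log2 fold change 2.96 ± 0.28 SE, limma adjusted p = 0.000401). CBS, which makes cystathionine, fell (log2 fold change -1.51 ± 0.16 SE, limma adjusted p = 0.000643). ACADL, an acyl-CoA dehydrogenase, rose (1.18 and 0.74 on D21 and 3.21 and 3.18 on D29; log2 fold change 2.23 ± 0.19 SE, limma adjusted p = 0.000292) among 4 rises and 6 falls of 23 genes of fatty acid oxidation. The falls of the amino acid response numbered 4 without D21 replicate 1 and 3 without D21 replicate 2, the falls of fatty acid oxidation 1 without D21 replicate 1, 2 without D21 replicate 2 and 3 without D29 replicate 2, and its rises 2 without D21 replicate 1 and 1 without D21 replicate 2. Imprinted genes gave 5 rises and 1 fall of 18, with MEG3, a non-coding RNA of the maternal copy, at 5.84 and 5.8 on D21 and 6.94 and 7.34 on D29 (log2 fold change 1.32 ± 0.13 SE, limma adjusted p = 0.000434), and the rises numbered 2 without D21 replicate 1 and 3 without D21 replicate 2, and the falls 2 without D29 replicate 1 and 2 in edgeR and in DESeq2. Coelomic and gonadal epithelium genes gave 4 rises and 2 falls of 16, the rises numbering 2 in DESeq2 and without any 1 library other than D29 replicate 1.

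Of 22 immediate early genes, which many stimuli induce within minutes, 5 rose and 3 fell. FOS was at 8.54 and 7.54 on D21 and 6.39 and 4.47 on D29 (log2 fold change -2.61 ± 0.59 SE, limma adjusted p = 0.0196) in the replicated experiment and at 2.92 on D21 and 3.53 on D29 in the other. DUSP1, the phosphatase induced with it, was at 6.61 and 6.19 on D21 and 5.55 and 5.25 on D29 (log2 fold change -1.0 ± 0.16 SE, limma adjusted p = 0.00437). FOS and FOSB lay lower in D29 replicate 2 than in D29 replicate 1, by more than 1 on the log2 scale, and FOS was not called without D21 replicate 1 or D21 replicate 2. In the same list FOSL2 and KLF2 rose (1.26 and 1.17), and the rises numbered 3 without D21 replicate 2 and 3 without D29 replicate 2 and the falls 1 without D21 replicate 1.

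Clock genes gave 4 rises and 4 falls of 19, with log2 fold changes of 0.55 for PER3 and -0.38 for PER1. The rises numbered 0 without D21 replicate 1, 1 without D21 replicate 2 and 2 without D29 replicate 2, and the falls 2 without D21 replicate 1 and 0 without D21 replicate 2. Motile cilium genes gave 10 falls and 2 rises of 29. FOXJ1, their master factor, fell by a small amount (log2 fold change -0.64 ± 0.08 SE, limma adjusted p = 0.00147). In this list, 7 of 12 called members moved the same way in the single-library experiment. The falls numbered 4 without D21 replicate 1, 3 without D21 replicate 2 and 5 without D29 replicate 2, and the rises 1 without any 1 library other than D29 replicate 1.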

How the data were processed

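Total RNA of isolated spheroids was sequenced as paired reads. The authors aligned them to ENSEMBL GRCh38.104 with STAR 2.7.8a and counted reads per gene with HTSeq 0.11 (versions from the submitters' processing notes, which leave the strand setting open). The deposited values are on a log2 scale, log2(CPM + 1) with 0.5 added to each count, and the 2 experiments were normalised separately. Whole reads came back for 100% of values (tolerance 0.01 reads), which gave the library totals. The UMI counts of the D24 control library of single cells, deposited as a filtered matrix, were summed per set of cells without clustering, doublet calls or correction for free RNA.

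limma 3.58.1 in R 4.3.3 was fitted on the 6 replicated libraries (D21, D25 and D29; eBayes with trend), with Benjamini-Hochberg adjustment over 27650 genes and a threshold of 0.05, without a further filter. A gene was called higher or lower when it passed. No test was run on the single-library table, which gave directions. Alternatives were a replicate block, 4 libraries only, no trend, median centring, other pseudocounts, a filter, edgeR 4.0.16 and DESeq2 1.42.0 on the recovered reads, the fold threshold of 1 and leaving out each library. On simulated counts for 27650 genes limma recovered 54 of 100 genes changed 2-fold and 100 of 100 changed 4-fold with 1 false call. For edgeR these were 81 and 100, with 17 false calls. The simulation gave every gene the same fixed spread, which was not estimated from these libraries.

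Named genes were the 12 largest rises and falls with the same direction in both experiments, and in each list up to 4 called members a direction, the first 2 members, members near 0, all called members of short lists and those whose direction differed between experiments. Some genes that this rule names are not reported here. The members, the lists and the rule were chosen with earlier results of these data known. Coordinates are from GENCODE 44. Library totals bound the precision of low genes, and intervals cover counting error only. TNF-treated samples were not used here.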

Additional observations from a re-analysis of the deposited data

Results flagged for a closer look

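In 8 genes named above the replicated and the single-library experiments pointed in opposite directions by more than 0.5 on the log2 scale, and the difference between experiments was not tested, since the second holds 1 library per day. CDH5 had a log2 fold change of 1.11 in the replicated and -0.60 in the single-library experiment. Among neuronal genes, ELAVL2 had 0.77 and -1.08, ELAVL4 1.09 and -0.98, and STMN2 1.37 and -0.89. FOS had -2.61 and 0.62, and MT-ND6, the only respiratory chain gene on the light strand of the mitochondrial genome, -0.78 and 0.64. RGS5 had 0.96 and -0.58, and TNNT2 -1.11 and 1.09. On D21 the summed neuronal level was 2931 CPM over 32 genes in the single-library experiment. It was 932 and 1016 CPM over 34 genes in the replicated experiment. The 2 experiments were scaled separately, so these sums cannot be ranked against each other. The part of neuronal transcripts in the differences of the neuronal genes was not tested.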

How the results depend on the processing

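No called gene among those named changed direction under any alternative run. Leaving out 1 library at a time gave 1398 to 2964 higher genes, 960 to 2453 lower genes and 82.75% to 88.54% of called genes with the same direction in the single-library experiment, where all libraries gave 2778, 2303 and 81.26%. The lowest counts came without D21 replicate 1 (1571 higher, 964 lower) and without D21 replicate 2 (1398, 960), followed by D29 replicate 2 (1891, 1443). With a lone library in a day, that library is assumed to vary like the other days. Median centring gave 4667 lower genes and a share of 76.34%, and moved the middle of all fold changes to -0.12 on the log2 scale. The share was 82.67% with 4 libraries, 82.67% in DESeq2 and 79.86% with a mean of at least 1. The added threshold of 1 on the log2 scale gave 971 higher, 395 lower and 93.91%. On the recovered reads edgeR called 3234 higher and 2318 lower and DESeq2 2705 and 1770. The other counts over all genes stayed within 1.5 times.

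Replicate numbers were not treated as pairing, because deviations from the day means correlated at 0.143 (D21 and D25), 0.0753 (D21 and D29) and 0.270 (D25 and D29). With the replicate block 3149 genes were higher and 2907 lower, with a share of 79.35%. Of 321 called genes among those that could be named, 206 were called under all 15 alternatives other than the fold threshold, and 274 under all of these that kept every library. Calls lost numbered 90 without D21 replicate 1, 103 without D21 replicate 2 and 58 without D29 replicate 2, against 3 in edgeR and 12 in DESeq2. With 2 libraries a day, changes of 2-fold or less can be missed. How often was not measured, since the simulated counts used a fixed spread that was not estimated from these libraries.

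Counts of some lists moved with settings that kept every library. Falls in fatty acid synthesis numbered 3 with median centring and 2 with the replicate block. Those of nuclear respiratory chain genes numbered 4 with median centring and 4 with the replicate block. With median centring the falls numbered 10 in cholesterol synthesis, 13 in fatty acid oxidation, 6 in chaperones of the endoplasmic reticulum, 5 in p53 targets, 4 in hedgehog genes, 4 in Wnt inhibitors, 3 in skeletal muscle and 2 in imprinted, HOX and chemokine genes, and the clock rises numbered 2. With a pseudocount of 0.1 the rises numbered 11 in skeletal muscle and 4 in neural progenitors, and the falls 4 in neural progenitors, 1 in immediate early genes and 0 in complement. With a mean of at least 1, which tests fewer genes, the rises numbered 5 in antigen presentation and the falls 3 in melanocytes, 10 in fatty acid oxidation and 0 in chemokines.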
